A study of Rattus norvegicus with 2 samples.

Results

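The Krüppel-like factors are zinc finger transcription factors, and 9 of their genes (Klf2, Klf3, Klf4, Klf5, Klf6, Klf9, Klf10, Klf13 and Klf15) were followed in rat bone mesenchymal stem cells (BMSCs) with and without icariin, a flavonol glycoside of Epimedium. The genes were found by the symbol in the array's annotation, old or current (for Klf13 a locus symbol, joined to its present name by gene identifier), and make up 9 of the 24210 genes and 10 of the 26419 sequences measured. They were chosen by family name, with their levels and differences on these arrays in view, so all values of these genes are a description and not a test. Gene expression was measured on NimbleGen rat arrays with Cy3 as the only dye, with 1 array for BMSCs given the solvent DMSO and 1 array for BMSCs given icariin for a day. The BMSCs were grown from femur and tibia marrow of young Sprague-Dawley rats and used at low passage. The donors are female in the labels but male in the study's methods. How many animals each culture came from, and whether the icariin culture also held DMSO, is not given in the sources used here. With 1 array per condition no difference has a replicate check and no p-value or SD could be made, so "higher" and "lower" describe the icariin array against the DMSO array.

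All Krüppel-like factors carry a conserved run of zinc fingers at the carboxyl end that binds CACCC and GC-rich elements, the same kind of site that the related Sp factors use. Outside the fingers they differ. Klf2, Klf4, Klf5 and Klf6 are mainly known as activators, although Klf4 also represses, Klf3 recruits the co-repressor CtBP, and Klf9, Klf10 and Klf13 recruit the co-repressor Sin3. Several are induced quickly by serum, flow, TGF-beta or hormones, and members of the family act in osteoblast, adipocyte and macrophage differentiation, all of them fates or companions of cells in marrow.

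Klf4 was the only one of the 9 genes at least 2-fold higher on the icariin array, at 2.73-fold, and none was at least 2-fold lower. Of the others, 5 were higher and 3 lower by smaller amounts, and 1 of the 5, Klf15, was at background on both arrays. Over all genes, 13.5% differed at least 2-fold, with 6.51% of all genes higher and 7.01% lower. The 1 member of 9 was therefore near the share of the whole array. The median log2 difference of the 9 genes was 0.33, beside -0.02 over all genes. A gene was counted as detected on an array when it lay above the receptor level, which is the 95th percentile of 1414 olfactory and vomeronasal receptor genes taken as silent in BMSCs (149 for DMSO and 169 for icariin). Of the 9 genes, 8 were detected on both arrays, and 5 of these were higher and 3 lower. Among the 9224 genes detected on both arrays, 7.32% differed at least 2-fold, with 2.96% higher and 4.36% lower, and 46.0% were higher by any amount.

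**Figure D1:**
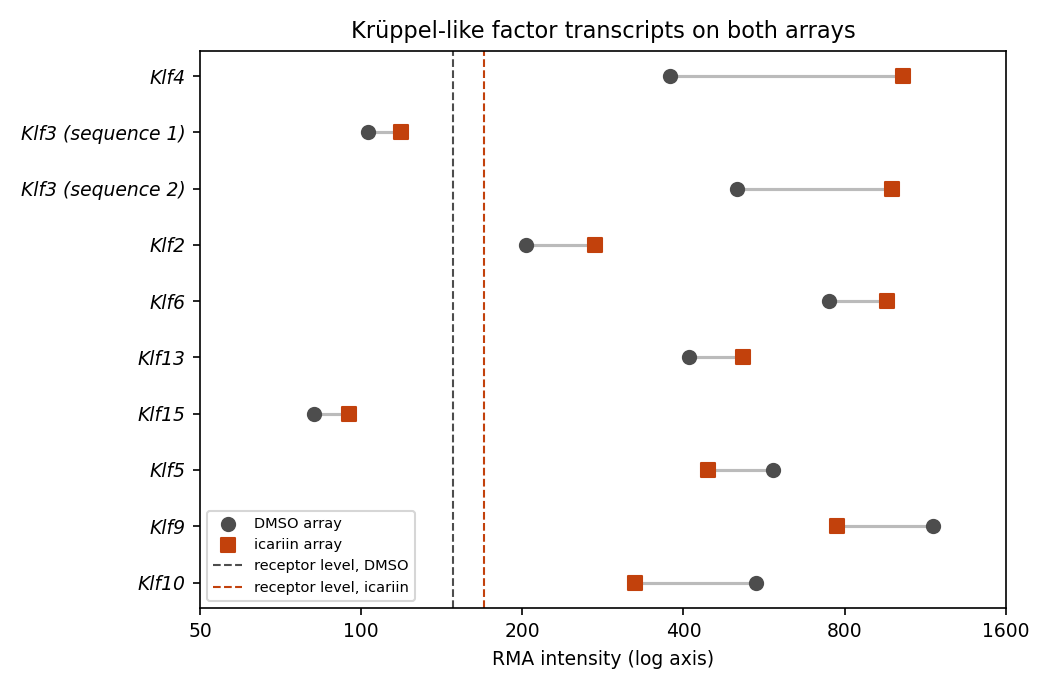
RMA intensity (log axis) of each of the 10 sequences of the 9 Krüppel-like factor genes on the DMSO array (grey circles) and the icariin array (orange squares), with the receptor level of each array as a dashed line. Klf4 shows the widest gap, from 377 to 1030.2, and Klf15 and the first Klf3 sequence lie below both receptor levels.

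Among the activators, Klf4, a factor of epithelial and myeloid differentiation that is also used in reprogramming, read 377 with DMSO and 1030.2 with icariin (log2 difference 1.45). Both values lay above the receptor level, and also above the 99th percentile of receptor genes (222 and 271). In the decile of mean intensity that holds Klf4 (499 to 1111), 7.97% of 2421 genes differed at least 2-fold, with 2.4% higher and 5.58% lower, and the central 95% of log2 differences ran from -1.31 to 0.99. Klf4 was the only one of the 9 genes outside this range of its own decile, and the other 8 lay inside.

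Klf6, which was described as a core promoter element binding protein and takes part in wound responses, read 749 and 958, which is 1.28-fold higher. Klf2, which keeps endothelial cells and T cells quiescent, read 203 and 273, which is 1.35-fold higher. Its DMSO value lay between the 95th and the 99th percentile of receptor genes, so the level of Klf2 in DMSO-treated BMSCs was close to background. Klf5, which acts in proliferation and early adipocyte differentiation, went the other way with 587 and 445, which is 1.32-fold lower. The activators therefore did not share a direction.

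Klf3 stood for the factors that recruit CtBP. Its 2 sequences on the array, taken from different predicted transcripts, read apart. The first read 103 and 119 and was detected on neither array. The second read 504 and 983, a ratio of 1.95 and a log2 difference of 0.96, just short of 2-fold. Averaged over both, Klf3 read 228 and 342 (log2 difference 0.59). For scale, among 485 genes whose several sequences were detected on both arrays, the log2 differences of a gene's sequences spanned 0.40 in the median. In 34.8% of these genes they had opposite signs. Klf3 is not among these genes, since its first sequence was not detected. Among all 1956 genes with several sequences, detected or not, the span was 0.57 in the median, with opposite signs in 44.4%.

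The factors that recruit Sin3 were split as well. Klf10, first known as a TGF-beta inducible early gene of osteoblasts, read 546 and 325, and was the lowest of the 9 genes by difference, at 1.68-fold lower (log2 difference -0.75). Klf9, a target of glucocorticoid and thyroid hormone receptors, read 1172 and 775, which is 1.51-fold lower. Klf13, a factor of T cells and heart that the array describes as similar to BTEB3, an older name, under a locus symbol that RefSeq now gives as Klf13, read 409.9 and 516, which is 1.26-fold higher. Klf15, a metabolic regulator of muscle, liver and fat, read 81.7 and 94.9. Both values are near the 73.8 and 78.4 of probes with random sequence, and no ratio is given for it. At 1.5-fold in place of 2-fold, 4 of the 9 genes differed, Klf4 and Klf3 higher and Klf9 and Klf10 lower, against 34.2% of all genes (16.4% higher and 17.8% lower). At 3-fold none of the 9 differed, against 3.09% of all genes (1.47% higher and 1.62% lower).

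**Figure D2:**
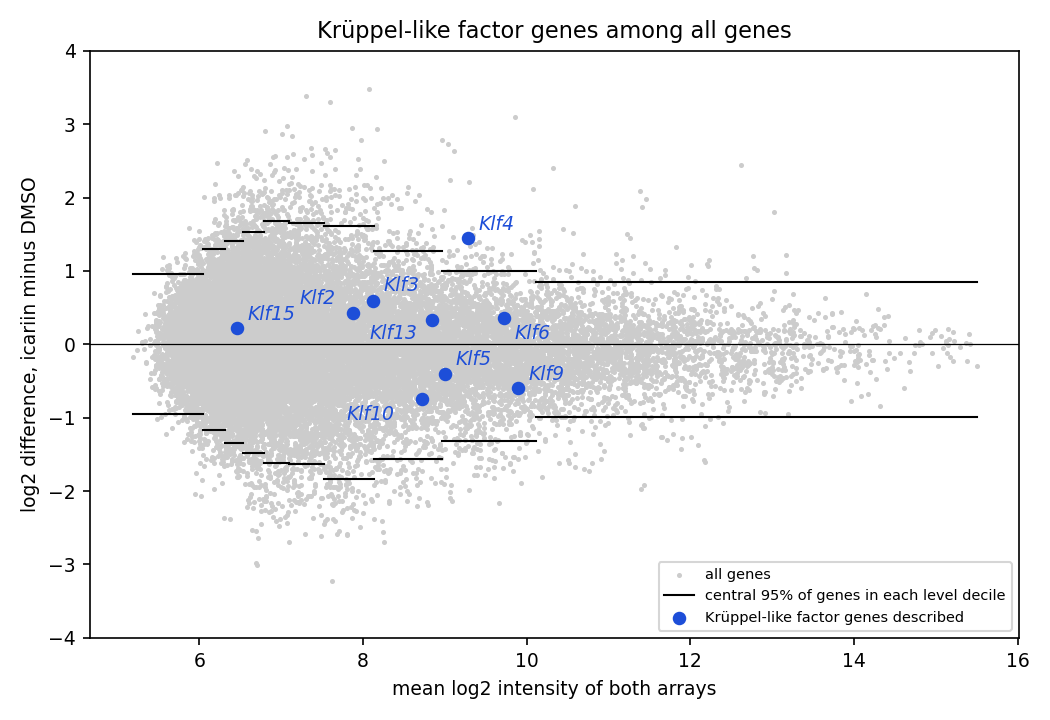
Log2 difference (icariin minus DMSO) against the mean log2 intensity of both arrays for all 24210 genes (grey) and the 9 Krüppel-like factor genes (blue), with black lines at the limits of the central 95% of genes in each decile of level. Klf4, at 1.45, lies above the upper line of its decile (0.99), and the other 8 genes lie between the lines.

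To show the sequence before these genes, RefSeq promoter windows (GRCr8) were read for the 6 of the 9 genes that the table held. For Klf3, Klf4 and Klf15 the window lies within the annotated span of the gene and is not printed. For Klf5, Klf6 and Klf9, which are the remaining 3, the window lies wholly before the gene. Their 250 bases before the start site are shown for that reason. Of these genes, 2 read lower on the icariin array and 1 higher. Klf5 lies at chr15:82471831-82472080 and Klf9 at chr1:230126396-230126645, both on the plus strand, and Klf6 at chr17:69458479-69458728 on the minus strand. Capitals mark matches to the motifs searched on both strands.
Klf5: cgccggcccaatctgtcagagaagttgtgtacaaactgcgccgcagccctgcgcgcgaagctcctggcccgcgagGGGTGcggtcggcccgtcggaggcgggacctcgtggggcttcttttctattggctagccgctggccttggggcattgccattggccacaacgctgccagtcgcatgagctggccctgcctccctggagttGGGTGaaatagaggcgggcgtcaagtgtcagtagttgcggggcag
Klf9: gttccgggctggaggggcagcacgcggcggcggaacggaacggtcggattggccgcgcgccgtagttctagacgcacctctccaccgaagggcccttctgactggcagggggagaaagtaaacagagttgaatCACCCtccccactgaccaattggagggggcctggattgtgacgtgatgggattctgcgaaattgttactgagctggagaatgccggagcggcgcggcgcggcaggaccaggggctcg
Klf6: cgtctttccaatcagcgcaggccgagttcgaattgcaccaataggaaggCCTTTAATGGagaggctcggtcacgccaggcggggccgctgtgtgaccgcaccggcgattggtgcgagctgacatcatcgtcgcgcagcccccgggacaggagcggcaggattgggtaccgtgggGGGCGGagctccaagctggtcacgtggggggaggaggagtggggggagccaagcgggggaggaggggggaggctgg

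The CACCC box, the element that Krüppel-like factors bind, was searched as CACCC, which reads GGGTG on the other strand. It occurred 2 times before Klf5, ending 171 and 41 bases before the start, once before Klf9, ending 113 bases before it, and not before Klf6. Of 33469 windows of the same length, 49.2% held at least 1 CACCC, so its presence is ordinary. The GC box of Sp factors, searched as GGGCGG, was found only before Klf6 among the 3 windows and in 30.5% of all windows. The CArG box of serum response factor began 201 bases before the start of Klf6, was in no other of the 3 windows, and occurred in 1.5% of all windows. A TATA box (TATAAA) and a full palindromic glucocorticoid response element, present in 12.9% and 0.0120% of all windows, were found in none of the 3. No match overlapped another. The 3 windows were GC-rich, with 63.6% to 67.2% G or C against a median of 51.2%. These matches describe letters only.

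The rest of the family was set beside the 9 genes. Of 7 other Krüppel-like factor genes measured, 1 was higher by 2-fold or more and 0 lower (median log2 difference 0.65), but 5 were detected on neither array, and with values raised to that level the median was 0. Klf16, another factor that recruits Sin3, read 104 and 421. Since it was not detected with DMSO, its ratio is a bound of at least 2.49-fold higher, taken against the higher of both receptor levels. Its probes come from a short predicted transcript, and a second sequence that the array annotates as similar to Klf16, and that has no current name here, read 74.8 and 148. Klf7, the closest relative of Klf6, was 1.92-fold higher, from 305 to 586. Both of its sequences were detected, one of them at 205 and 323 and the other at 453 and 1063, with log2 differences of 0.66 and 1.23. Klf1, Klf11, Klf12, Klf14 and Klf17 were detected on neither array. The array gives the symbol Tsga13 for the sequence read as Klf14, and Tcfcp2l2 for the one read as Klf11. Whether these sequences measure Klf14 and Klf11 was not tested.

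Of 8 Sp factor genes, 2 were higher by 2-fold or more and 0 lower (median 0.41), and 5 were detected on neither array. With values raised to the receptor level 1 was higher by 2-fold or more and the median was 0. Sp2 read 193 and 491, which is 2.55-fold higher, but its DMSO value lay under the 99th percentile of receptor genes. Sp9 read 91.0 and 202 and was at least 1.19-fold higher, but its icariin value lay under the 99th percentile of receptor genes. Sp1, the general GC box factor, read 1420.1 and 1823, which is 1.28-fold higher. Sp7, the osterix gene of osteoblasts, was detected on neither array by the mean of its 2 sequences, of which 1 was detected with DMSO alone.

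**Figure D3:**
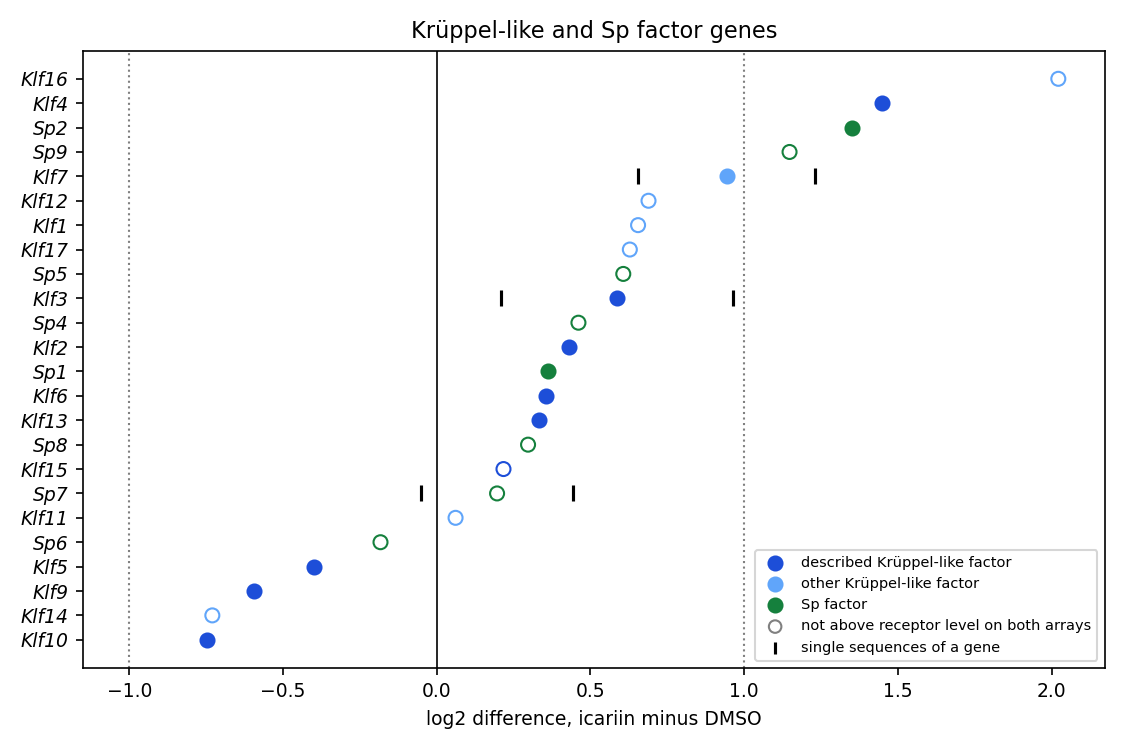
Log2 difference (icariin minus DMSO) of the 9 Krüppel-like factor genes (dark blue), 7 other Krüppel-like factor genes (light blue) and 8 Sp factor genes (green), ordered by size, with open symbols for genes not detected on both arrays, black ticks for single sequences and dotted lines at 2-fold. Klf16, Klf4, Sp2 and Sp9 lie beyond the upper 2-fold line, and no gene lies beyond the lower one.

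Upstream of Klf2 and Klf4, the kinases MEK5 and ERK5 and the MEF2 factors carry the flow and growth signal that induces both genes. Of 7 genes of this route, none differed 2-fold (median -0.11), and 5 were detected on both arrays. Mapk7, which encodes ERK5, was not matched to a sequence and is not among the 7. Map2k5, which encodes MEK5, was 1.20-fold higher, Mef2c 1.14-fold higher and Mef2d 1.20-fold lower. Glucocorticoids induce Klf9 and Klf15, and of 10 genes that comprise their receptor and other induced genes, 1 was lower by 2-fold or more and 0 higher, with a median of 0.10. It was Nr3c1, the glucocorticoid receptor itself, at 136 and 65.8 and so detected on neither array. Sgk1, a kinase, was 1.88-fold higher (1693 and 3176), Errfi1, an inhibitor of EGF receptor signalling, 1.58-fold lower, and Zbtb16, a zinc finger repressor, at least 1.23-fold lower. Of the 10 genes, 5 were higher and 5 lower by any amount. Among the 7 detected on both arrays the median was 0.34. Klf9 was lower, and whether it shares a cause with these genes was not tested.

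Genes of partner proteins were measured as well. Of 13 co-repressor and co-activator genes, 1 was lower by 2-fold or more and 0 higher, with a median of -0.27, and 12 were detected on both arrays. The lower gene was Kat2b, an acetyltransferase, at least 1.79-fold lower (303 and 149). Sin3b, a scaffold that Klf9, Klf10 and Klf13 recruit, was 1.48-fold lower, and Ep300, an acetyltransferase that binds several Krüppel-like factors, was 1.60-fold higher. Of 4 ubiquitin ligase genes, none differed 2-fold (median 0.04). Wwp1, a ligase of Klf2 and Klf5, was at least 1.04-fold higher, Itch, a ligase of Klf10, 1.12-fold higher and Stub1 1.31-fold lower.

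Genes known from other cells as targets of the 9 factors went in both directions. Of 22 such genes, 13 were higher and 9 lower by any amount. By 2-fold or more, 1 was higher and 3 were lower, and the median was 0.25. With values raised to the receptor level, 0 were higher and 2 lower by 2-fold or more, and the median was 0.01. Thbd, the thrombomodulin gene that Klf2 activates in endothelium, was 2.05-fold lower, from 1823 to 889. S1pr1, a lipid receptor that Klf2 activates in T cells, read 423 and 214, which is 1.98-fold lower. Klf2 itself read 203 and 273. Vcam1, an adhesion molecule that Klf2 restrains, was at least 2.36-fold lower (401 and 79.6), and Edn1, the endothelin gene that Klf2 also restrains, read 153 and 299. Prodh, a proline oxidase known as a Klf15 target, was at least 1.63-fold lower, and Klf15 was at background on both arrays. Tgfbr1, a TGF-beta receptor known as a Klf6 target, was at least 1.17-fold higher. Tagln and Acta2, contractile genes that Klf4 represses in smooth muscle, read 28505 and 29002, and 17867 and 21421. Whether the 9 factors act on any of these genes in BMSCs was not tested.

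The cell type of the cultures was checked by marker genes. Of 18 marrow stromal markers, 16 were detected on both arrays, and 1, Vcam1, was lower by 2-fold or more and 0 higher (median 0.17), with summed intensities of 134698 and 153264. Col1a1, the main collagen of bone, read 33820 and 39096, Postn, a matrix protein gene, read 3499.7 and 5838, and Pdgfrb, a growth factor receptor gene, read 2051 and 3067. Among the stromal markers only Lepr was detected on neither array.

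Macrophage and leukocyte markers were higher on the icariin array together with Klf4. Of 19 macrophage markers, 13 were higher by 2-fold or more and 0 lower (median 1.33), and their summed intensity was 7091 with DMSO and 21344 with icariin. With values raised to the receptor level, 9 were higher by 2-fold or more and the median was 0.96, and it was 0.97 with 64 added to both values, so that both medians lay under 2-fold. Lyz2 was 8.58-fold and C1qa 6.19-fold higher, and Ncf4, not detected with DMSO, was at least 2.41-fold higher, while Cd163, Msr1 and Marco were detected on neither array. Of 12 pan-leukocyte markers, 8 were higher by 2-fold or more and 0 lower (median 1.29), or 5 and a median of 0.80 with values raised. Their sums were 2397 and 5373, and Cd53 was 3.50-fold, Was at least 1.19-fold and Nckap1l at least 1.18-fold higher. Ikzf1 was the only pan-leukocyte marker detected on neither array. Klf4, Klf2 and Klf6 are also expressed by macrophages. The part of these cells in the Klf4 difference was not tested, and in a bulk sample more cells of a type and more RNA per cell cannot be told apart.

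Markers of other cells that use Krüppel-like factors were mixed. Of 12 endothelial markers, 1 was higher and 1 lower by 2-fold or more (median -0.08, sums 2322 and 2232), and 5 (Kdr, Flt1, Tek, Erg and Robo4) were detected on neither array. With values raised, 0 were higher, 0 lower and the median was 0. Pecam1 was at least 1.59-fold lower, Tie1 at least 1.88-fold and Cdh5 1.82-fold higher. Of 9 adipocyte markers, 1 was higher by 2-fold or more and 0 lower (median 0.14, sums 30157 and 27088), and only Lep was detected on neither array. With values raised, 1 was higher and the median was 0. The higher gene was Cidec, a lipid droplet protein, at least 2.57-fold, while Lipe, a lipase, was 1.32-fold higher and Fabp4, the fatty acid carrier, was 1.26-fold lower. Of 9 T cell markers, 4 were higher by 2-fold or more and 0 lower (median 0.81, sums 968 and 1949.6), but 5 of the 9 (Cd3d, Cd3e, Cd3g, Cd5 and Lck) were detected on neither array. With values raised to the receptor level 1 was higher by 2-fold or more and the median was 0, while in the value table of the series, which holds fewer sequences, the median was 1.30. Cd247, Cd28 and Cd2 were 3.09, at least 1.82 and at least 1.54-fold higher. The part of these cells in the differences of the Krüppel-like factors was not tested.

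**Figure D4:**
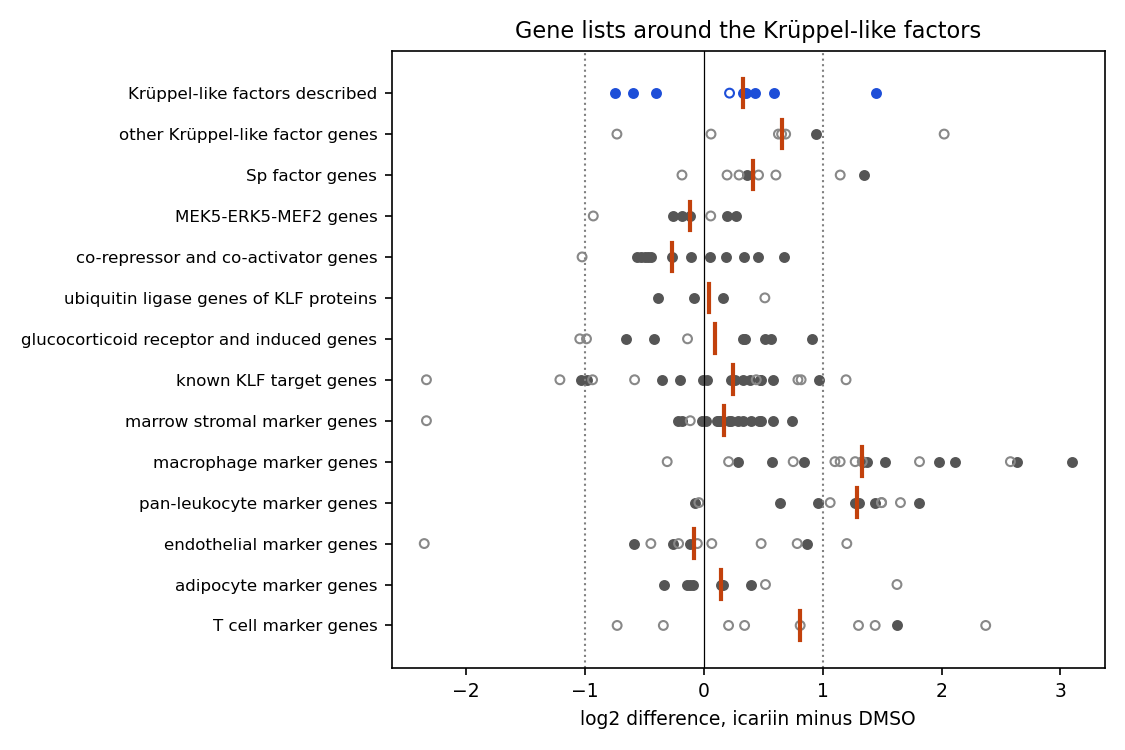
Log2 difference (icariin minus DMSO) of every measured gene of the 9 Krüppel-like factors (blue) and 13 further lists (grey), with open symbols for genes not detected on both arrays, an orange bar at each list's median and dotted lines at 2-fold. The medians of the macrophage (1.33) and pan-leukocyte (1.29) markers lie beyond the upper 2-fold line, but at 0.96 and 0.80 with values raised to the receptor level they lie below it, and the Krüppel-like factors spread from -0.75 to 1.45 around 0.33.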

How the data were processed

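RNA of 1 DMSO-treated and 1 icariin-treated BMSC culture was hybridised to NimbleGen rat arrays. The deposited intensity values, on a linear scale, had been made by the authors through quantile normalization and RMA in NimbleScan, which summarises the probes of a sequence (5 for 99.8% of sequences) into 1 value. Neither the NimbleScan version nor a background correction is stated in the sources used here. Quantile normalization would hide a change of all transcripts in 1 direction. The number of arrays limits the precision.

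Current gene names came from RefSeq (GRCr8), with 20681 sequences matched by gene identifier and 31 by accession, while 5707 kept the file's symbol. Log2 values were averaged over the sequences of a gene, with no pseudocount, and the difference is icariin minus DMSO. A gene detected on 1 array alone has a bound ("at least") in place of a ratio. The study's methods filter by fold change and name no fold, and 2-fold was used here.

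The members and lists were chosen with earlier results of these data known. In each list, the text names the 3 genes with the largest difference among those detected on the brighter array. It also names every Krüppel-like or Sp factor gene at 2-fold. Further genes were chosen after their values were seen (Sp7, Nr3c1, Thbd, S1pr1, Edn1, Tagln, Acta2, Cdkn1a, Col1a1 and those listed as detected on neither array). Klf8, Klf18, Sp3, Mapk7, Fbxw7, Smurf1 and Fcer1g were not matched to a sequence. With 2 arrays no gene was named for likeness of pattern. The calculation was tested on simulated data, made by adding known differences and small random noise to the DMSO values. This checks the arithmetic alone, and not how far 2 arrays differ without a treatment. Python 3.11.15, pandas 2.3.3 and statsmodels 0.14.6 were used.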

Additional observations from a re-analysis of the deposited data

How the results depend on the processing

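No paired analysis was possible because each treatment had 1 array. In the settings that change the scaling or summary of the values (the value table of the series, subtraction of a loess curve with span 0.3, centring on the detected genes, 64 added to both values, values raised to the higher receptor level, and the sequence with the highest level), all 9 genes kept their side of 2-fold, and none changed direction, except that Klf15 was 0 when raised to the receptor level. The log2 difference of Klf4 ran from 1.31 to 1.54, that of Klf3 from 0.51 to 0.96 (the latter from the brighter sequence alone), that of Klf10 from -0.75 to -0.65, and the median of the 9 genes from 0.29 to 0.41. The value table of the series holds no Klf15. At 1.5-fold, 4 of the 9 genes differed (2 higher and 2 lower), and at 3-fold 0 did, with 0 higher.

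Over all genes the count of 3274 (1577 higher, 1697 lower) was 8276 (3974 and 4302) at 1.5-fold and 749 (357 and 392) at 3-fold. It was 1228 (542 and 686) with 64 added, 948 (356 and 592) with values raised to the receptor level, and 675 (273 and 402) among genes detected on both arrays. Of the 3274 genes 48.2% were higher. This share was 37.6% with values raised, 40.4% among genes detected on both arrays, and 54.3% with centring on the detected genes (1790 higher and 1506 lower), which turned the split. Of 78 recomputed medians of the other lists, 64 moved by 0.1 or less. The receptor genes, taken as silent, themselves differed at least 2-fold in 12.4% of cases, which limits what dim genes can show.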
